A study of Mus musculus with 4 samples.

Results

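Sox13, Sox4, Lef1, Tcf7 and Tcf4, 5 genes for DNA-binding transcription factors, were followed in a mouse B-lymphoma line that is sensitive to JQ1 and one that is resistant to it. They were 5 of 16591 genes in the count table. They were picked by name as 4 factors with an HMG-box DNA-binding domain, together with Tcf4, which has none. Their difference between the lines was already known when they were picked, so their values below are a description, with no test. The study sequenced total RNA from 4 libraries, 2 of the line JQ1S (sensitive) and 2 of the line JQ1R (resistant). Both are Eμ-Myc lines of strain C57BL/6. The Eμ enhancer of the immunoglobulin heavy-chain locus drives a Myc transgene in B-lineage cells, and both lines therefore share that driver. JQ1 inhibits the BET family of bromodomain proteins, readers of acetylated histones. The labels describe early-passage cells kept in medium with no drug named. Each group is a single line, so resistance and other differences between these cell lines cannot be told apart, and nothing in the labels says that the 2 libraries of a line came from separate cultures.

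HMG-box proteins bind the minor groove of DNA and bend it. LEF1 and TCF1 (the product of Tcf7) are the nuclear effectors of Wnt signalling: with beta-catenin they activate target genes, and without it they recruit corepressors. Both are known from lymphocyte development, TCF1 mainly in T cells and LEF1 in T-cell and B-cell progenitors. SOX4 is needed for the early steps of B-cell development, and SOX13, a SOX factor of group D, is known from gamma-delta T cells, where it can bind TCF1. The gene Tcf4 encodes E2-2, a basic helix-loop-helix E protein of B cells and plasmacytoid dendritic cells. It is not the Wnt effector that is also called TCF4, whose gene is Tcf7l2.

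Sequence just upstream of the transcription start is shown for the SOX pair, because Sox13 differed between the lines and Sox4 differed by less than its replicates did. The stretches come from RefSeq promoter windows (GRCm38) and are cut to the bases before the start site in both RefSeq and GENCODE. Sox13 is given for chr1:133424378-133424462 and Sox4 for chr13:28953714-28953949, both on the minus strand, 5′ to 3′, and capitals mark an E-box, the CANNTG element that E proteins bind.
Sox13: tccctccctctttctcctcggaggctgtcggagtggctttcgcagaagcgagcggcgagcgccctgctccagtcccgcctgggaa
Sox4: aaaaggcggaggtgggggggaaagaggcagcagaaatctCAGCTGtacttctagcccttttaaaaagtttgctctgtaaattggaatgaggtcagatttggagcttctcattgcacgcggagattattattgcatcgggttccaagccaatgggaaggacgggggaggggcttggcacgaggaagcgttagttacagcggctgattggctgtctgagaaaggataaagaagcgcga

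The Sox13 stretch of 85 bases was 67.1% G and C and the Sox4 stretch of 236 bases 50%. Of 3 short motifs searched on both strands of the full windows of 300 bases, with overlap between motifs allowed, the Sox4 window held 1 E-box, and the Sox13 window held none and 1 match to CAAAG, the core of TCF/LEF sites. That match lies 70 bases before the RefSeq start of Sox13 but downstream of its GENCODE start. It is shown in capitals with its surroundings at chr1:133424265-133424294 on the minus strand.
Sox13 site: cggaggccctggCTTTGgacccagcgggct

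Neither window held AACAAT, a SOX core. Over all 32851 RefSeq windows of that length, 53.9% held CAAAG, 72.3% an E-box and 10.7% AACAAT, so single matches are common. The matches are letters in the sequence and say nothing of binding in these cells.

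Total counts were 10346007 to 13048103 per library, and a single count was worth 0.0770 to 0.0970 CPM (counts scaled to a common TMM-adjusted library size). Of 11945 tested genes 263 were higher and 182 lower in resistant cells, at an adjusted p below 0.05 in edgeR's quasi-likelihood test, and 117 of these changed at least 2-fold (0.979%). All 10 markers of B cells were analysed, and they summed to 2327 and 2395 CPM in the sensitive and 2534 and 2464 CPM in the resistant libraries, with Pax5 at 107 ± 7.48 CPM in JQ1S and 104 ± 1.73 CPM in JQ1R cells (mean ± SD, n = 2 per line here and below) and Ebf1 at 188 ± 13.2 and 186 ± 14.1 CPM. Of these 10 markers 2 rose, Cd22 (log2 change of 0.28, adjusted p = 0.0129 in edgeR) and Ms4a1, the gene of the mature B-cell antigen CD20, which went from 1.31 and 1.36 CPM to 8.14 and 7.06 CPM (2.50 ± 0.23, adjusted p = 4.28e-06). The call of Cd22 was lost without either resistant library (0.202 without replicate 1, 0.102 without replicate 2). Cd79b (0.12, adjusted p = 0.278) and Ptprc (0.17, adjusted p = 0.158) were not called in edgeR. Their part in the levels of the 5 factors was not tested. In bulk RNA, fewer cells of a kind and less RNA per cell cannot be told apart.

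Sox13 was the factor with the large difference. It lies on chromosome 1 at 133382303 to 133424377 (GRCm38, ENSMUSG00000070643). It had 218 and 188 counts in the JQ1S pair and 31 and 38 in the JQ1R pair, which is 16.8 and 18.2 CPM against 2.83 and 3.19 CPM. Both sensitive libraries lay far above both resistant libraries, and the libraries of a line differed by 1.09-fold and 1.13-fold. The mean fell from 17.5 ± 1.04 to 3.01 ± 0.255 CPM, or 5.76-fold lower (log2 change of -2.53 ± 0.16, SE). It ranked as the 15th lowest log2 change of the 11945 tested genes. Leaving out any library kept the log2 change between -2.62 and -2.45. Sox13 RNA was still detected in the resistant line.

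Sox4, the other SOX gene, did not follow Sox13. This single-exon gene lies on chromosome 13 at 28948919 to 28953713 (ENSMUSG00000076431). It had 339 and 358 counts in the JQ1S pair and 413 and 373 in the JQ1R pair. In CPM these were 26.1 and 34.7 against 37.8 and 31.4, so the lines overlapped and the lowest and the highest value came from different lines. The mean was 30.4 ± 6.12 CPM in JQ1S and 34.6 ± 4.52 CPM in JQ1R cells, a log2 change of 0.20 ± 0.12, while the 2 sensitive libraries differed by 0.41 on the same scale. Without sensitive replicate 1 the log2 change was -0.01, and without sensitive replicate 2 it was 0.40. GENCODE places the long noncoding RNA Gm26735 on the opposite strand over 54.6% of the Sox4 exon. The strand setting of the counting is not given in the sources used here, so reads of these genes may not have been separated.

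The TCF/LEF pair was barely expressed in either line. Lef1, on chromosome 3 at 131110471 to 131224356 (ENSMUSG00000027985), had 8 and 7 counts in the JQ1S pair and 2 and 6 in the JQ1R pair. These are 0.616 and 0.679 CPM against 0.183 and 0.504 CPM. The lines did not overlap, but the 2 resistant libraries differed from each other by 2.76-fold. Lef1 was below the filter on low counts and was not fitted. From the summed counts of 15 and 8, the ratio of sensitive to resistant was 1.84, with an exact 95% interval of 0.731 to 5.01 that covers counting error only and includes equal levels.

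Tcf7, on chromosome 11 at 52252371 to 52283014 (ENSMUSG00000000782), had 14 and 17 counts in the JQ1S pair and 10 and 9 in the JQ1R pair. Its levels were 1.08 and 1.65 CPM against 0.914 and 0.757 CPM, with the sensitive libraries higher and no overlap. The log2 change was -0.67 ± 0.41, with values of -0.98 without sensitive replicate 1 and -0.37 without sensitive replicate 2. The ratio of summed counts, sensitive over resistant, was 1.60 with an exact 95% interval of 0.875 to 3.0. Tcf7 stood just above the filter, at about 0.880 CPM in 2 libraries, and Lef1 just under it, and both sensitive libraries of Tcf7 were above that level. A difference of this size in either gene was not resolved at this depth.

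Tcf4 differed between the lines by less than its replicates did. The gene lies on chromosome 18 at 69343356 to 69689079 (ENSMUSG00000053477). It had 1241 and 1036 counts in the JQ1S pair and 1047 and 1198 in the JQ1R pair, or 95.5 and 101 CPM against 95.7 and 101 CPM. The lines overlapped almost completely. The means were 98.0 ± 3.55 and 98.2 ± 3.54 CPM, with a log2 change of 0.00 ± 0.06. The ratio of summed counts, resistant over sensitive, was 1.01 with an exact 95% interval of 0.948 to 1.07 for counting error. When each library was left out in turn the log2 change stayed between -0.03 and 0.04.

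**Figure D1:**
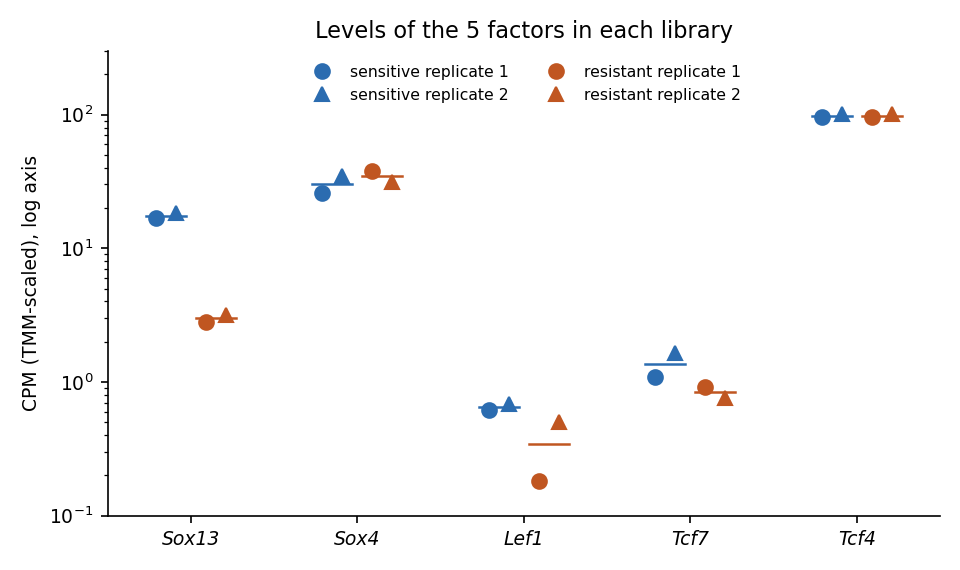
Levels of the 5 factors in CPM on a log axis, with circles for replicate 1 and triangles for replicate 2 of the sensitive (blue) and resistant (orange) lines, and bars at the means of 2 libraries. Sox13 lies at 16.8 and 18.2 CPM in JQ1S and 2.83 and 3.19 CPM in JQ1R cells, Tcf4 at 95.5 to 101 CPM in all 4 libraries, and Lef1 below 1 CPM throughout.

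Of the 5 factors 4 were tested, and 1 of those, Sox13, was among the genes called lower. Among all tested genes 3.73% were called in either direction, 2.20% as higher, 1.52% as lower and 0.393% as lower by at least 2-fold. JQ1S and JQ1R libraries did not overlap in 3 of the 5 factors (Sox13, Lef1 and Tcf7), as they did not in 47.3% of all tested genes. Nothing is read from these counts, because the factors were chosen on the same comparison.

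To set the factors against each other, CPM was divided by the length in kilobases covered by any annotated exon. In sensitive cells Sox4 was highest at 6.34 ± 1.28 CPM per kb, followed by Sox13 at 4.06 ± 0.240, Tcf4 at 3.58 ± 0.130, Tcf7 at 0.519 ± 0.154 and Lef1 at 0.0737 ± 0.00512. In resistant cells Sox4 stood at 7.21 ± 0.943 CPM per kb, Tcf4 at 3.59 ± 0.129, Sox13 at 0.699 ± 0.0591, Tcf7 at 0.318 ± 0.0424 and Lef1 at 0.0391 ± 0.0259. No neighbours in either order overlapped in their 2 libraries, though Sox13 and Tcf4 were close in sensitive cells. The place of Tcf4 depends on the length used, since its 62 annotated transcripts together cover 27382 bases and the longest has 8577. Per kb of the longest transcript, a choice made after the data were seen, Tcf4 stood highest, at 11.4 ± 0.414 in sensitive and 11.5 ± 0.412 in resistant cells. Sox13 then stood at 4.74 ± 0.281 and 0.816 ± 0.0691 CPM per kb. With CPM averaged over all 4 libraries, the median tested gene of known length stood at 7.11 CPM per kb of any annotated exon. By that average Sox13 exceeded 25.9% of these genes, Sox4 48.6%, Tcf4 33.5% and Tcf7 5.61%. For Sox13 the average mixes the unlike levels of the lines and describes neither. For Tcf4 its place again depends on the length used.

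The genes whose pattern over the 4 libraries was most like that of Sox13 were Bahcc1, Cdk18 and Bcl2l2, at Euclidean distances of 0.13, 0.14 and 0.25 between log2 CPM values centred on each gene's mean. Only 9 tested genes lay within 0.5 of Sox13 on this scale. Bahcc1, which encodes a chromatin-binding protein, stood at 60.8 and 69.4 CPM in JQ1S and 10.7 and 11.0 CPM in JQ1R cells. Cdk18, a cyclin-dependent kinase gene, stood at 6.08 and 6.99 against 1.10 and 1.18 CPM. Bcl2l2, which encodes the apoptosis inhibitor BCL-W, stood at 1.85 and 1.65 against 0.183 and 0.168 CPM, the last 2 values being 2 counts each. Its fitted log2 change was -3.25 ± 0.53, against -2.53 ± 0.16 for Sox13. The distance uses a prior count of 2, which shrinks log2 differences at counts this low. All 3 were high in both sensitive libraries and low in both resistant ones, which follows from picking them by that pattern. For the other fitted factors the measure singled out little, with 562 genes within 0.5 of Tcf7, 8041 of Sox4 and 10348 of Tcf4. The nearest to Tcf7 were Gm17538 (0.07), Spint2 (0.10) and Gm6311 (0.13), to Sox4 Gm29650 (0.04), 9130221H12Rik (0.05) and Rab29 (0.05), and to Tcf4 Gm12844, U2af1l4 and Slc38a1 (0.01 each).

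**Figure D2:**
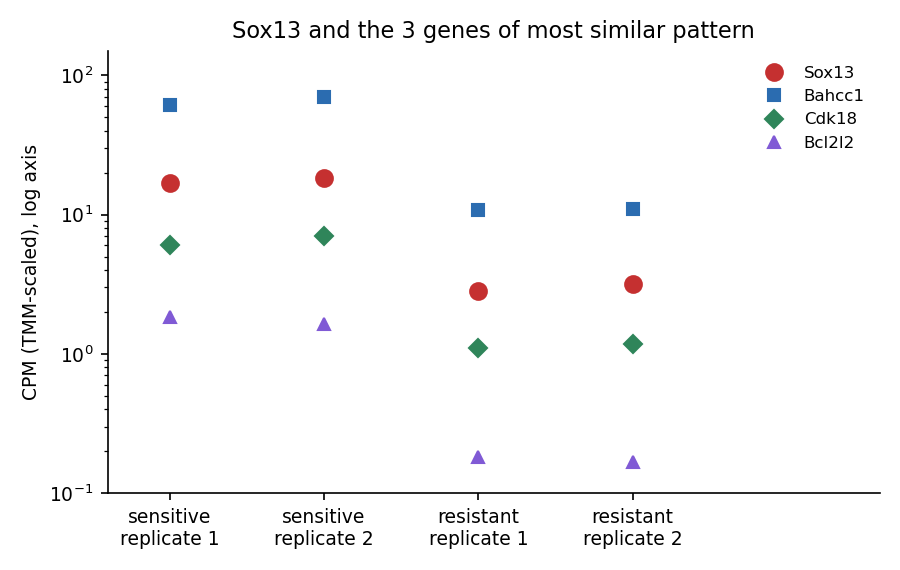
CPM on a log axis of Sox13 and the 3 tested genes nearest to it in pattern, in each of the 4 libraries. All 4 genes are high in both sensitive and low in both resistant libraries, with Sox13 at 16.8, 18.2, 2.83 and 3.19 CPM.

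Of 20 tested genes with a start within 1 Mb of its own, 0 were called by any of edgeR, DESeq2 and limma-voom, with 3 below an unadjusted p of 0.05 by edgeR, and their median log2 change was 0.02 (range -0.29 to 1.26) beside 0.00 for all tested genes. The largest value was that of Plekha6, at 0.616 and 1.07 CPM in JQ1S and 1.83 and 2.10 CPM in JQ1R cells (log2 change of 1.26 ± 0.38, adjusted p = 0.0857 in edgeR), opposite in sign to Sox13. With the replicate number as a block Plekha6 was called higher (adjusted p = 0.0499). Some of the 20 were also called where a sensitive library was left out, which leaves 1 library in that line. Near Lef1, 1 of 4 tested genes fell. This was Hadh, which encodes a mitochondrial enzyme of fatty acid oxidation and starts 162 kb from Lef1, on chromosome 3 at 131233419 to 131272101. Hadh stood at 11.5 and 13.3 CPM in JQ1S and 1.65 and 1.77 CPM in JQ1R cells, a log2 change of -2.85 ± 0.20 (adjusted p = 1.16e-07, edgeR). Near Tcf7 0 of 17 genes were called by any of edgeR, DESeq2 and limma-voom, with 2 below an unadjusted p of 0.05 by edgeR. Near Sox4 only Cdkal1 was tested (log2 change of 0.18, adjusted p = 0.469 in edgeR), and near Tcf4 no gene was.

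**Figure D3:**
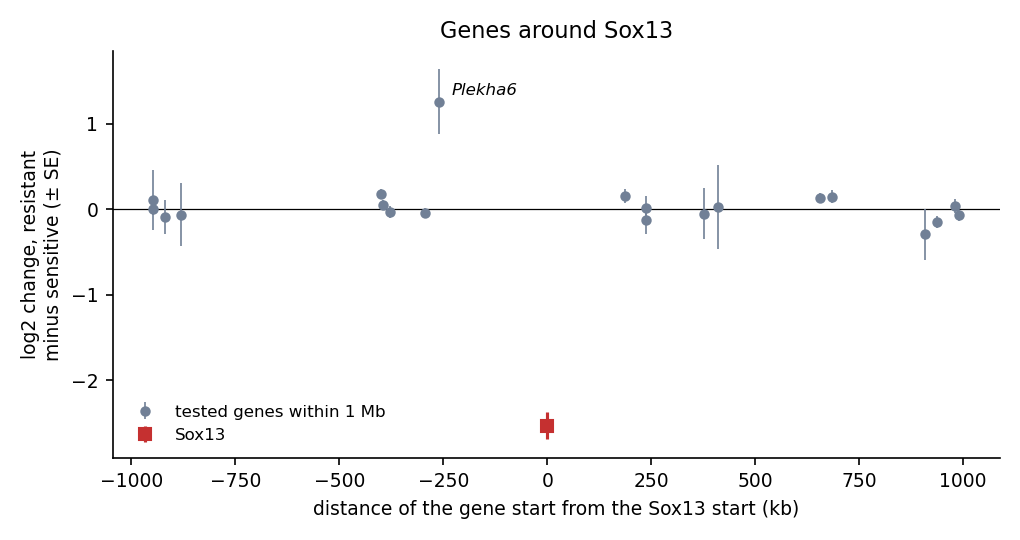
Log2 change (resistant minus sensitive, ± SE of the fit) of Sox13 (red square) and of the 20 tested genes within 1 Mb (grey), against the distance of their starts from the Sox13 start in kb. Sox13 lies at -2.53 and the others between -0.29 and 1.26.

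Of the relatives of these factors few could be tested. Among 19 other SOX and TCF/LEF genes listed, 14 were not analysed here, 2 were below the filter and 3 were tested, of which 0 were called by any of edgeR, DESeq2 and limma-voom, with 1 below an unadjusted p of 0.05 by edgeR. Sox12, of the same group as Sox4, stood at 4.31 and 5.24 CPM in JQ1S and 6.22 and 6.72 CPM in JQ1R cells (log2 change of 0.45 ± 0.18, adjusted p = 0.212 in edgeR). Tcf7l2, the Wnt effector with the confusable name, stood at 1.31 and 1.26 against 0.731 and 1.09 CPM (-0.48 ± 0.40, adjusted p = 0.592), and Sox8 at 1.74 ± 0.284 and 1.54 ± 0.153 CPM. The close relatives of Sox13 in group D, Sox5 and Sox6, were not analysed here. Of 19 tested proteins with HMG boxes of other kinds 0 were called by any of edgeR, DESeq2 and limma-voom, with 1 below an unadjusted p of 0.05 by edgeR. That was Hbp1, a repressor of TCF-dependent transcription (log2 change of 0.22 ± 0.08, adjusted p = 0.149). Hmgb3 (0.17, adjusted p = 0.353), Kmt2c (0.14, adjusted p = 0.432) and Hmgb2 (0.13, adjusted p = 0.446) followed it by p. The median of this list was 0.02. Some genes of it, Hmgb2 and Kmt2c among them, were called where a sensitive library was left out, which leaves 1 library in that line.

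Of the partners of TCF4, only Id2 and Id3 were called with edgeR, in opposite directions. Among 7 tested E proteins, their ID inhibitors and other partners 1 rose and 1 fell, beside 2.20% and 1.52% of all tested genes. Their median log2 change was -0.10, and 4 were below an unadjusted p of 0.05 by edgeR. Id2, which binds E proteins and keeps them from DNA, rose from 0.847 and 1.36 CPM in sensitive to 2.29 and 3.53 CPM in resistant cells (log2 change of 1.44 ± 0.35, adjusted p = 0.0285 in edgeR). Id3, another such inhibitor, fell from 30.9 and 30.5 to 21.7 and 25.6 CPM (-0.37 ± 0.10, adjusted p = 0.0485). In neither gene did the lines overlap, but both calls are near the threshold and were lost with DESeq2 (adjusted p = 0.327 and 0.390). Id2 was also lost without resistant replicate 2 (0.299) and without sensitive replicate 1 (0.0533), and Id3 without resistant replicate 1 (0.511) and with library size alone as the scaling (0.0654). Tcf3, which encodes E2A, stood at 531 ± 29.1 and 468 ± 4.48 CPM (-0.18 ± 0.06, adjusted p = 0.0948 in edgeR). Tcf12, which encodes HEB, stood at 119 ± 6.18 and 121 ± 0.450 CPM. The E-protein corepressor gene Cbfa2t3 had a log2 change of -0.33 ± 0.09 (adjusted p = 0.0585 in edgeR, or 0.0261 with the replicate block).

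The machinery that acts with LEF1 and TCF1 was expressed in both lines, and no gene of it was called with all 4 libraries. Beta-catenin (Ctnnb1) stood at 442 and 439 CPM in JQ1S and 426 and 435 CPM in JQ1R cells, a log2 change of -0.03 ± 0.05 (adjusted p = 0.813, edgeR). Of 20 tested genes for beta-catenin, co-activators and corepressors 0 were called by any of edgeR, DESeq2 and limma-voom, with 4 below an unadjusted p of 0.05 by edgeR. Those 4 were Pygo2 (-0.19), a co-activator, Cdc73 (-0.17), and the Groucho corepressors Tle3 (-0.16) and Tle4 (-0.16), with adjusted p-values of 0.206 to 0.289. The list's median was -0.10, and its lowest value was that of Jup, the beta-catenin relative plakoglobin, at 1.15 and 1.16 against 0.823 and 0.420 CPM (-0.91 ± 0.46, adjusted p = 0.339). Some genes of this list were called lower where a sensitive library was left out, which leaves 1 library in that line. Of 21 tested genes of the beta-catenin destruction complex and cytoplasmic Wnt signalling 0 were called by any of edgeR, DESeq2 and limma-voom, with 1 (Csnk1e, -0.15) below an unadjusted p of 0.05 by edgeR, and their median was -0.02. Frat2 (0.14), Gsk3a (-0.11) and Csnk1d (-0.08) followed by p, with adjusted p-values of 0.374, 0.399 and 0.50. Axin1, the scaffold of the complex, stood at 89.3 ± 0.968 and 88.3 ± 2.39 CPM.

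At the cell surface 2 of 9 tested Wnt receptors and regulators fell and 0 rose, beside 1.52% and 2.20% of all tested genes. Their median log2 change was -0.09, and 3 were below an unadjusted p of 0.05 by edgeR. The third was Ryk, a Wnt co-receptor, at 84.7 and 82.1 against 72.7 and 75.8 CPM (-0.17 ± 0.07, adjusted p = 0.195). Another 43 of the 58 genes of this list, among them most Wnt ligands and Frizzled receptors, were not analysed here, and 6 were below the filter. Lrp5, a co-receptor for Wnt, fell from 25.8 and 31.1 to 15.9 and 16.0 CPM (log2 change of -0.82 ± 0.11, adjusted p = 2.70e-04 in edgeR), and this call held in each alternative tried. Lrp6, its close relative, stood at 87.6 ± 5.85 and 79.2 ± 2.83 CPM (-0.14 ± 0.07, adjusted p = 0.316). Lgr6, an R-spondin receptor on chromosome 1 at 134983301 to 135105276, fell from 2.46 and 2.81 to 1.01 and 0.925 CPM (-1.43 ± 0.33, adjusted p = 0.0191), and its call was lost with DESeq2 (0.327) and without resistant replicate 2 (0.0967). In both genes each JQ1S library was above each JQ1R library.

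Of 10 tested TCF/LEF target genes 0 were called by any of edgeR, DESeq2 and limma-voom, with 3 below an unadjusted p of 0.05 by edgeR and a median log2 change of -0.08. Ccnd1, which encodes cyclin D1, stood at 148 and 145 CPM in JQ1S and 128 and 126 CPM in JQ1R cells (-0.21 ± 0.06, adjusted p = 0.0679 in edgeR). Jun had a log2 change of 0.33 ± 0.15 with overlapping lines (adjusted p = 0.296). Myc, which these cells carry as a transgene under the Eμ enhancer, stood at 1556 ± 154 and 1409 ± 44.7 CPM (-0.14, adjusted p = 0.250). Its level is therefore not a plain readout of TCF/LEF. Ppard, a nuclear receptor gene, had a log2 change of -0.14 ± 0.10 (adjusted p = 0.517). Lgr5, a target and R-spondin receptor, stood at 17.3 ± 1.86 and 18.2 ± 3.50 CPM. Axin2 and Nkd1, targets used as readouts of Wnt signalling, were not analysed here.

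Early B-lineage genes, a setting in which SOX4, LEF1 and E proteins are known, had calls in both directions, but 15 of 21 had none. Of 21 tested genes 4 rose and 2 fell, beside 2.20% and 1.52% of all tested genes. Their median log2 change was -0.01, and 10 were below an unadjusted p of 0.05 by edgeR. The list was chosen with earlier results of these data known, so nothing is read from its counts. Rag1, which encodes a subunit of the V(D)J recombinase, fell from 115 and 118 to 55.5 and 53.9 CPM (-1.09 ± 0.07, adjusted p = 1.63e-08 in edgeR), and Il7r, the receptor for interleukin 7, fell (-0.38, adjusted p = 0.00271, but 0.0677 if resistant replicate 1 is left out). Cd93 rose from 43.5 and 43.7 to 60.4 and 61.9 CPM (0.49 ± 0.07, adjusted p = 5.88e-04). Flt3 (1.04), Myb (0.24) and Vpreb3 (0.22) rose with adjusted p-values of 0.0418, 0.0464 and 0.0456 in edgeR, and DESeq2 called none of these 3 (0.504, 0.0851 and 0.139). Without resistant replicate 1 all 3 calls were lost (0.263, 0.234 and 0.286), and those of Myb and Vpreb3 also without resistant replicate 2 (0.302 and 0.416). With limma-voom the adjusted p of Flt3 was 0.0545. The surrogate light-chain genes Igll1, at 0.0870 ± 0.0142 and 0.179 ± 0.134 CPM, and Vpreb1, at 0.445 ± 0.194 and 0.523 ± 0.0929 CPM, were below the filter in both lines.

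**Figure D4:**
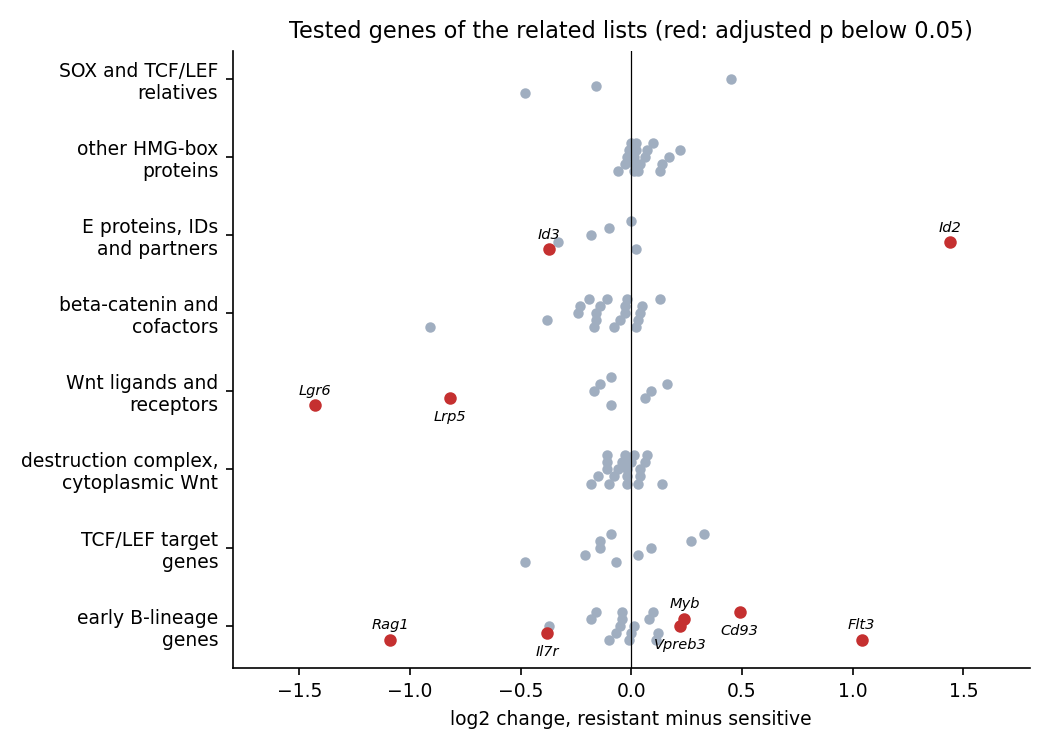
Log2 change (resistant minus sensitive) of each tested gene in 8 related lists, red where the adjusted p was below 0.05 in edgeR. Height within a list has no meaning. The 10 red genes are Id2, Id3, Lrp5, Lgr6, Rag1, Il7r, Cd93, Flt3, Myb and Vpreb3, and the lists of HMG-box, beta-catenin and destruction-complex genes hold none.

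Lef1, Tcf7 and Sox13 are also genes of T cells, and Tcf4 of plasmacytoid dendritic cells, so markers of those cells were read beside them. Of 17 T-cell markers 12 were not analysed here, and the summed level of the other 5 was 14.7 to 15 CPM in the sensitive and 15.6 to 17.2 CPM in the resistant libraries. Nearly all of that was Cd2, at 14.0 ± 0.0998 and 15.3 ± 0.644 CPM. Cd3d had 3 and 0 counts in the sensitive and 0 and 1 in the resistant libraries. Bcl11b had 1 and 1 counts in the sensitive and 5 and 8 in the resistant libraries, with no overlap. Lat and Cd8b1 overlapped between the lines, and all of these but Cd2 were below the filter. The 9 markers of gamma-delta T cells were not analysed here. Of 5 markers of plasmacytoid dendritic cells, 2 were analysed and summed to 0.291 to 0.462 CPM in sensitive and 0.274 to 0.336 CPM in resistant cells. Myeloid markers (4 of 10 analysed) summed to 1.16 to 1.46 and 1.93 to 2.29 CPM, with Itgam at 1.14 ± 0.239 and 1.53 ± 0.0952 CPM (adjusted p = 0.626, edgeR), and erythroid markers (2 of 7) to at most 0.679 CPM in any library. Of 8 stromal and endothelial markers 2 were analysed, Pecam1 and Cdh5, and summed to 88.4 to 100.2 and 88.9 to 90.2 CPM, nearly all of it Pecam1, which B-lineage cells also express. The part of these markers of other cells in the levels of the 5 factors was not tested.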

How the data were processed

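RNA was sequenced from 2 JQ1-sensitive and 2 JQ1-resistant Eμ-Myc libraries, made with a TruSeq RNA kit per the labels' protocols. The authors deposited one table of raw, whole-number read counts for each Ensembl gene. TopHat, Bowtie2 and HTSeq appear in the submitters' processing notes beside FastQC, limma and cutadapt 1.7, with mm10 and GRCm38 as builds. Which tool did what, and with which strand setting, is not given in the sources used here. The lowest sum of a gene over the 4 libraries was 4 counts.

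Symbols, positions and lengths came from GENCODE M21 (GRCm38), which held 16393 of the 16591 identifiers, with 198 not matched. Promoter windows came from RefSeq (GRCm38), 250 bases before to 50 after a start, for 4 of the 5 factors. Counts were fitted with edgeR 4.0.16 in R 4.3.3 (glmQLFit, glmQLFTest, TMM factors, group alone, filterByExpr at count 10 and total 15), which left 11945 genes. P-values were adjusted by Benjamini-Hochberg over all of them and called below 0.05. They measure only the spread between these libraries, which may be technical. Standard errors come from the F statistic. Intervals of count ratios are exact at 95%. Pattern distances use log2 CPM with a prior count of 2.

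The 5 factors and the lists of genes (8 of pathways, 7 of cell markers) were chosen with earlier results of these data known. Besides the factors, the text names 12 key genes where analysed, called list members, list members with the smallest p-values (at most 4 a list), the 3 genes nearest in pattern to each fitted factor and called neighbours within 1 Mb. Other genes with values (Plekha6, Cdkal1, Axin1, Jup, Lgr5, Vpreb1, Cd3d, Bcl11b, Pax5 and Ebf1) were added after their values were seen. Alternatives were 2 other scalings, no filter, DESeq2 1.42.0, limma-voom (limma 3.58.1), a replicate block and leaving out each library. Leaving out a library leaves 1 library in its line, so the spread comes from the other line's pair alone. Calls from such fits are not comparable with those from all 4 libraries. The replicates were not copies of a library: the chi-square of their counts per degree of freedom was 4.09 for the sensitive and 1.79 for the resistant pair. On counts simulated for this comparison over 11945 genes, 27 of 50 genes changed 1.25-fold and 42 of 50 changed 1.5-fold were recovered. All 50 changed 2-fold and all 50 changed 4-fold were also recovered, and there were 9 false calls. Changes were placed only in genes with a mean of at least 5 CPM, and all genes shared 1 dispersion (a coefficient of variation of 4.38%). Recovery of genes below that level, Tcf7 among them, was not measured.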

Additional observations from a re-analysis of the deposited data

How the results depend on the processing

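The log2 change of Sox13 was -2.54 to -2.51 under the 2 other scalings, no filter, DESeq2, limma-voom and the replicate block, and -2.62 to -2.45 with a library left out. With a library left out, Sox4 ranged from -0.01 to 0.40, Tcf7 from -0.98 to -0.37, Tcf4 from -0.03 to 0.04 and the log2 ratio of summed Lef1 counts from -1.82 to -0.35, the lowest without resistant replicate 2. These ranges are descriptions, since the factors were chosen on this comparison. For the same reason nothing is read from the calls among them, which were 1 lower in each of the 10 alternatives and 0 to 1 higher with a library left out.

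Over all genes DESeq2 called 122 higher and 86 lower, and leaving out a library gave 160 to 672 higher and 109 to 727 lower, most without sensitive replicate 1 and fewest without resistant replicate 2. In DESeq2 the counts were 0 higher and 0 lower for E proteins and partners, 1 lower for Wnt receptors and 1 higher for early B-lineage genes. With library size alone 0 E proteins and partners were lower. Every count here with a library left out comes from a fit with 1 library in 1 line, so it is not comparable with the full fit. With a library left out, counts were 0 to 2 higher and 0 to 1 lower for other HMG-box proteins, 0 to 1 higher and 0 to 3 lower for E proteins and partners, 0 to 3 lower for beta-catenin and cofactors, 1 to 3 lower for Wnt receptors, 0 to 1 higher and 0 to 2 lower for TCF/LEF targets, and 1 to 6 higher and 1 to 5 lower for early B-lineage genes. Among neighbours they were 0 to 2 higher and 0 to 1 lower for Sox13, 0 to 1 higher for Lef1 and 0 to 1 higher for Tcf7.

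The correlation of deviations between libraries with the same replicate number was -0.0201 over 11945 genes. With 2 libraries per line this cannot show whether the numbers mark a shared day or batch. With the number as a block, 347 genes were higher and 248 lower, 2 E proteins and partners were lower, and 1 neighbour each of Sox13 and Lef1 was higher. Of the other named genes that could be fitted, 13 turned sign under an alternative, and none was called with all 4 libraries in the fit by group alone or where its sign turned. Without sensitive replicate 1 these were Kmt2c (-0.02), Tcf12 (-0.03), Lgr5 (-0.03), 9130221H12Rik (-0.02), Gm29650 (-0.03), Gm12844 (-0.03), Slc38a1 (-0.03) and U2af1l4 (-0.03). Without sensitive replicate 2 they were Hmgb2 (-0.01), Ebf1 (0.06), Pax5 (0.03) and Pecam1 (0.02), without resistant replicate 1 Axin1 (0.01), and without resistant replicate 2 Ebf1 (0.07), Lgr5 (-0.13), Gm12844 (-0.03), Slc38a1 (-0.02) and U2af1l4 (-0.04). With library size alone Ebf1 stood at 0.00. With a library left out the ranges were -0.02 to 0.31 for Kmt2c, -0.03 to 0.07 for Tcf12, -0.13 to 0.26 for Lgr5, -0.02 to 0.37 for 9130221H12Rik, -0.03 to 0.43 for Gm29650, -0.03 to 0.05 for Gm12844 and Slc38a1, -0.04 to 0.04 for U2af1l4, -0.01 to 0.29 for Hmgb2, -0.09 to 0.07 for Ebf1, -0.12 to 0.03 for Pax5, -0.17 to 0.02 for Pecam1 and -0.05 to 0.01 for Axin1. The causes of these shifts were not tested. Depth limits Lef1 and Tcf7, at 2 to 17 counts per library.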

Other observations

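Cdk18, the gene second nearest to Sox13 in pattern, also lies on chromosome 1, at 132112237 to 132139684. Its start is 1285 kb from that of Sox13, outside the window of 1 Mb used for neighbours. Its level fell from 6.53 ± 0.641 CPM to 1.14 ± 0.0565 CPM (-2.50 ± 0.25 on the log2 scale). Cdk18 was picked for its likeness to Sox13 in these same libraries, so this fall is a description with no test. Of 13 tested genes with a start between those of Sox13 and Cdk18, 0 were called in edgeR, and their median log2 change was 0.01 (range -0.17 to 1.26). This stretch was chosen after its values were seen.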
